A study of Arabidopsis thaliana with 10 samples.

Results

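The morning and daytime genes of the circadian clock were followed across 10 RNA-seq libraries of *Arabidopsis thaliana* seedlings. The set was given as a list of gene identifiers and holds 10 of the 32548 genes in the tables. They are *CCA1* (AT2G46830), *LHY* (AT1G01060), *RVE8* (AT3G09600), *RVE4* (AT5G02840), *RVE6* (AT5G52660), *RVE1* (AT5G17300), *RVE2* (AT5G37260), *PRR9* (AT2G46790), *PRR7* (AT5G02810) and *PRR5* (AT5G24470). Of these, 9 passed the filter of a mean of at least 10 reads per library, and *PRR9*, with at most 4 reads in any library, did not.

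The study compared Col-0, the wild type, with mutants that lack components of the autonomous flowering pathway, which keeps the flowering repressor *FLC* low. Each of the 5 genotypes, namely Col-0, the single mutants *fld* and *ld*, and the double mutants *efl2 efl4* and *sdg26 aprf1*, was represented by 2 libraries, labelled replicate 1 and replicate 2. All plants shared the Col-0 background and were whole seedlings, 10 days old, grown on MS plates at 23°C with 16 h of light and 8 h of dark. The *fld*, *ld*, *sdg26* and *aprf1-9* alleles are T-DNA insertions, 1 line each, and *efl2* and *efl4* carry small deletions made with CRISPR/Cas9. The library labels spell that double mutant elf2/4. The hour at which seedlings were collected, and what the replicate numbers stand for beyond separate replicates, are not given in the sources used here, so *p* values may cover only the spread between these libraries.

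In the plant clock, CCA1 and LHY are MYB-like repressors whose transcripts peak around dawn and which hold down evening genes. The PRR proteins PRR9, PRR7 and PRR5 follow one another through the day and repress *CCA1* and *LHY*. RVE8, RVE4 and RVE6, which share the MYB-like domain of CCA1, activate afternoon and evening genes, and RVE1 and RVE2 belong to the same family and act mainly on clock outputs. Because the transcripts of most of these genes swing over the day, their levels in a library can also depend on the phase of the clock. The part of clock phase in these libraries was not tested.

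Depth lay between 20455413 and 20768023 reads on genes per library, and 23207 to 23570 genes had a read. The mutated genes followed the labels: *FLD* had 450 and 467 reads in Col-0 and 43 and 40 in *fld*, *LD* had 695 and 753 in Col-0 and 386 and 424 in *ld*, *SDG26* had 265 and 321 in Col-0 and 50 and 55 in *sdg26 aprf1*, and *APRF1* had 146 and 177 in Col-0 and 100 and 88 there. *EFL2* and *EFL4*, whose deletions need not lower the transcript, were at 112 and 147 and at 112 and 91 reads in *efl2 efl4*, against 162 and 207 and 116 and 150 in Col-0. *FLC* had 4 reads in both Col-0 libraries and 144 to 626 in the mutants. The 3 green tissue markers summed to 353438 to 403737 reads, nearly all from *RBCS1A*, the 4 root markers summed to 1722 to 2022, and the 3 floral organ markers summed to at most 27 reads. The 4 seed storage markers summed to 2 to 10 reads in 9 libraries and to 127 in *efl2 efl4* replicate 2, of which *CRA1*, a seed storage globulin gene, gave 106 and *CRU3* gave 17.

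The sequence just upstream of a clock gene often holds the sites through which clock proteins act, and the 300 bases before each annotated start are therefore shown for 5 genes. *CCA1* and *LHY* are the dawn repressors, and *RVE1*, *PRR7* and *PRR5* are the genes that differed most between the replicate sets. Sequences run 5′ to 3′ on the strand of the gene and were read from the RefSeq TAIR10.1 assembly, whose gene starts may differ from those used for counting. Capitals mark matches, on either strand, to the G-box CACGTG, the evening element AAAATATCT or the CCA1-binding site AAAAATCT.
CCA1, chr2:19245291-19245590, + strand: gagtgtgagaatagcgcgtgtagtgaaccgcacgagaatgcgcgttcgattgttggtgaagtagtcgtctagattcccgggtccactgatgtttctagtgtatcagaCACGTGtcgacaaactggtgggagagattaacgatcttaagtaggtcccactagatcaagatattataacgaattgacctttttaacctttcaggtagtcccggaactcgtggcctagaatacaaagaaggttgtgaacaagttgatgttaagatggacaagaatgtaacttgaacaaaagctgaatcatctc
LHY, chr1:37872-38171, - strand: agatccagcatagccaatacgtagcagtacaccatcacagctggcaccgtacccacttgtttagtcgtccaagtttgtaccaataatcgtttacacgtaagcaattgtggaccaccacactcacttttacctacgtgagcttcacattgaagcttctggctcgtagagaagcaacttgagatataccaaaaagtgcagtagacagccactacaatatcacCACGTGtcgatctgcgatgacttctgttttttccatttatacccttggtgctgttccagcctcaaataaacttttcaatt
RVE1, chr5:5692993-5693292, - strand: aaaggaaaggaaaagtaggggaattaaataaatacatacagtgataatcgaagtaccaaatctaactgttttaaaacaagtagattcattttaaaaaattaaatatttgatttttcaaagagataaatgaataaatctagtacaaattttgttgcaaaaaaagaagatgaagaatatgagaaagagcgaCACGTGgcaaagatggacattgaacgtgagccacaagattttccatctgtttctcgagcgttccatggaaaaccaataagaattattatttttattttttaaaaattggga
PRR7, chr5:642031-642330, - strand: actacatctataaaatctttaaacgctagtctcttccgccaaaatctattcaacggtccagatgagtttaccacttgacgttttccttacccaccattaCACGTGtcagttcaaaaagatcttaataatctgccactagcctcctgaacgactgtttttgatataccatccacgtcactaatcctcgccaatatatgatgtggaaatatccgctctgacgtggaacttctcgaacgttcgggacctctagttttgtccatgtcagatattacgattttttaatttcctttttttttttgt
PRR5, chr5:8358547-8358846, - strand: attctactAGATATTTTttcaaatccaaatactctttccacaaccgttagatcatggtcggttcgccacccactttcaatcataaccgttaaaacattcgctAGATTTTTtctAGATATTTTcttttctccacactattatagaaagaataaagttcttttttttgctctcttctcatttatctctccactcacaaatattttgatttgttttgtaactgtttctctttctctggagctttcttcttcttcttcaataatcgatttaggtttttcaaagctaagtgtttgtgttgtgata

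A G-box stood in the windows of 6 of the 10 genes, *CCA1*, *LHY*, *RVE1*, *RVE2*, *PRR9* and *PRR7*, and in 6.48% of the windows of all 32541 genes with a full window. *PRR9* held 2 of them, from 244 to 239 and from 172 to 167 bases before its start. The evening element was found in *PRR5* alone, at 2 positions starting 292 and 187 bases upstream, and in 2.65% of all windows. The CCA1-binding site was found in *RVE6*, *RVE2* and *PRR5*, against 7.62% of all windows. In *PRR5* it lies between the evening elements, from 198 to 191 bases upstream, and overlaps neither. *RVE8* and *RVE4* held none of the 3 motifs in this window, and the *RVE4* window overlaps exons of 2 neighbouring genes. A match to these letters is a description of the sequence and not a measured site.

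**Figure D1:**
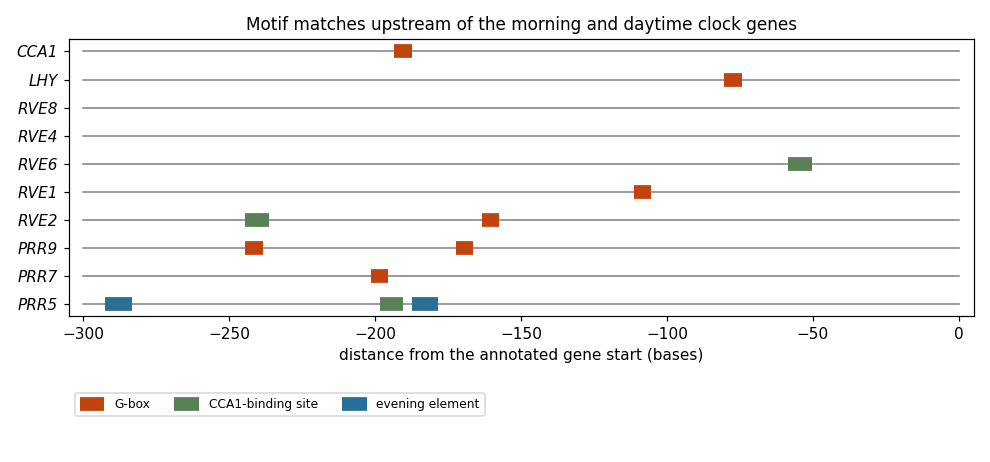
Positions of the G-box, CCA1-binding site and evening element in the 300 bases before the start of each of the 10 genes; the x axis is the distance from the annotated start in bases. G-boxes stand in 6 genes, and the 2 evening elements stand in *PRR5* alone.

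In TAIR10.1, *CCA1* (19245591 to 19248915, plus strand) and *PRR9* (19232607 to 19235179, plus strand) lie on chromosome 2, *LHY* (33365 to 37871, minus strand) on chromosome 1 and *RVE8* (2946239 to 2949017, plus strand) on chromosome 3. The other 6 lie on chromosome 5: *PRR7* (637681 to 642030, minus strand), *RVE4* (648648 to 651979, plus strand), *RVE1* (5690225 to 5692992, minus strand), *PRR5* (8356204 to 8358546, minus strand), *RVE2* (14751344 to 14753088, minus strand) and *RVE6* (21359001 to 21362273, minus strand). Uniqueness of the reads was checked because several of these genes are related. In 8 of the 10 genes, every 50-base window of the exons occurred once in the genome, and in *RVE2* 99.7% did. In *PRR9* only 58.9% did: 38.7% of its windows also match AT2G46670, a gene with 0 to 4 reads per library. Reads from such windows cannot be assigned to either gene, so the *PRR9* counts are uncertain. AT5G17305, annotated on the opposite strand, overlaps 225 exonic bases of *RVE1*, and no library had a read on it; whether counting used strand is not given in the sources used here.

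Per exonic length, the genes spanned a wide range of levels. In RPKM, reads scaled to exonic length and library size, mean ± SD over the 10 libraries, *RVE2* was highest at 142 ± 24.6 and *RVE4* followed at 31.1 ± 3.34. *RVE8* (8.15 ± 1.66), *PRR5* (7.63 ± 2.41), *RVE6* (6.74 ± 1.01), *RVE1* (6.30 ± 2.50) and *LHY* (4.49 ± 1.23) formed a middle group in which the library ranges of neighbours overlapped. *CCA1* (1.203 ± 0.231) was below *LHY* in every library, and *PRR7* (0.794 ± 0.237) overlapped *CCA1* in range. *PRR9* was at 0.0568 ± 0.0359, below *PRR7* in every library. In whole seedlings, fewer expressing cells and less RNA per cell cannot be told apart, for any of these levels.

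Values per library are given as normalised reads, that is, reads recovered from the tables and scaled over the 10 libraries, always replicate 1 and then replicate 2. *CCA1*, one of the dawn repressors, had 90.96 and 58.28 normalised reads in Col-0, 69.47 and 59.59 in *sdg26 aprf1*, 86.64 and 72.63 in *efl2 efl4*, 62.55 and 58.08 in *ld* and 64.61 and 51.04 in *fld*. The Col-0 pair was the widest and enclosed all mutant libraries but *fld* replicate 2 and *ld* replicate 2. *LHY*, its close partner, had 412.8 and 319.1 in Col-0, 286.9 and 356.5 in *sdg26 aprf1*, 408.3 and 436.8 in *efl2 efl4*, 264.3 and 205.8 in *ld* and 258.4 and 206.2 in *fld*. The 4 *fld* and *ld* libraries were the lowest for *LHY* and did not overlap with Col-0, and of the *efl2 efl4* libraries 1 lay just under the higher Col-0 library and 1 above it.

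Among the MYB-like activators, *RVE8* had 487.8 and 356.6 normalised reads in Col-0, 413.8 and 312.8 in *sdg26 aprf1*, 522.8 and 448.7 in *efl2 efl4*, 391.5 and 281.2 in *ld* and 411.5 and 308.2 in *fld*. In every genotype the second library was the lower one. *RVE4* ran the other way, with 1107 and 1451 in Col-0, 1378 and 1425 in *sdg26 aprf1*, 1271 and 1395 in *efl2 efl4*, 1236 and 1572 in *ld* and 1185 and 1478 in *fld*. *RVE6* had 266.9 and 181.8 in Col-0, 253.7 and 199.6 in *sdg26 aprf1*, 221.1 and 214.9 in *efl2 efl4*, 265.4 and 190.5 in *ld* and 281.3 and 220.2 in *fld*. For *RVE4* and *RVE6* the 5 replicate 1 libraries did not overlap with the 5 replicate 2 libraries. The gaps were narrow, from 1378 to 1395 for *RVE4* and from 221.1 to 220.2 for *RVE6*.

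Of the output regulators, *RVE1*, which links the clock to auxin and hypocotyl growth, had 375.8 and 201.5 normalised reads in Col-0, 396.7 and 159.9 in *sdg26 aprf1*, 328.6 and 132.3 in *efl2 efl4*, 374.3 and 167.1 in *ld* and 311.1 and 171.1 in *fld*. The lowest replicate 1 library stood well above the highest replicate 2 library. *RVE2*, also called *CIR1*, had 3334 and 2466 in Col-0, 2712 and 2273 in *sdg26 aprf1*, 2912 and 2305 in *efl2 efl4*, 3323 and 2719 in *ld* and 3861 and 2798 in *fld*. It was lower in the second library of every genotype, but the 2 sets overlapped.

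Of the pseudo-response regulators, *PRR7* had 66.97 and 47.42 normalised reads in Col-0, 60.41 and 37.74 in *sdg26 aprf1*, 48.80 and 38.80 in *efl2 efl4*, 72.64 and 34.64 in *ld* and 79.51 and 42.03 in *fld*. *PRR5* had 330.9 and 207.5 in Col-0, 298.0 and 161.9 in *sdg26 aprf1*, 333.6 and 179.1 in *efl2 efl4*, 388.4 and 172.2 in *ld* and 344.9 and 219.2 in *fld*. For both genes the replicate 2 libraries lay below the replicate 1 libraries, for *PRR7* by a narrow gap (47.42 against 48.80). *PRR9* had 4 and 4 whole reads in Col-0, 3 and 4 in *sdg26 aprf1*, 0 and 0 in *efl2 efl4*, 4 and 2 in *ld* and 2 and 2 in *fld*. A count of 0 allows up to 3 reads per library at this depth, so *PRR9* was too low in every genotype for a fold change.

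**Figure D2:**
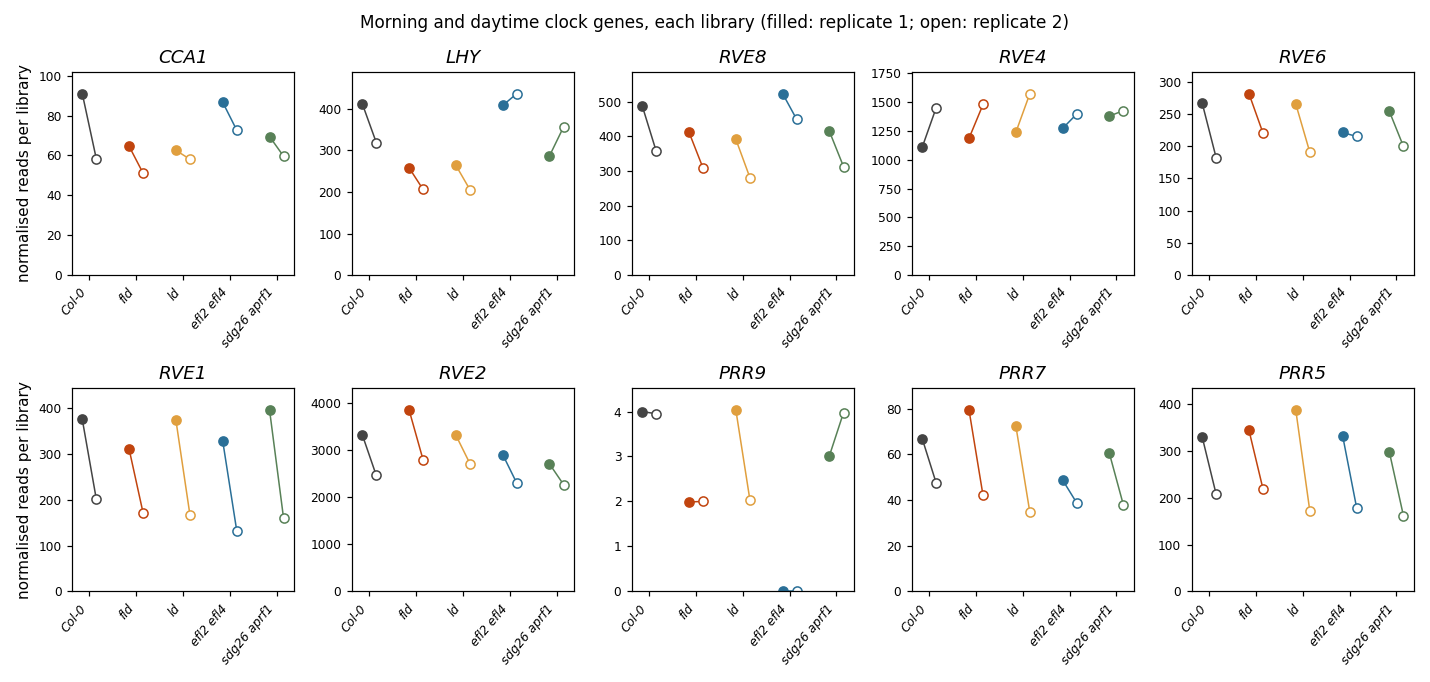
Normalised reads (y axis, starting at 0) of each of the 10 genes in every library, by genotype (x axis), with replicate 1 filled, replicate 2 open and a line joining the pair. The second library is lower in all 5 genotypes for *RVE1* and *PRR5*, higher in all 5 for *RVE4*, and *LHY* is lowest in the 4 *fld* and *ld* libraries.

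The first comparison asked whether the replicate sets differed for these genes, over the 5 genotypes. *RVE1*, *PRR5* and *PRR7* fell most from replicate 1 to replicate 2, to 46.6%, 55.4% and 61.1% of their replicate 1 means, and *RVE8*, *RVE6* and *RVE2* fell to 76.7%, 78.2% and 77.8%. *RVE4* alone rose, to 118.5%. *CCA1* and *LHY*, the dawn repressors, did not pass the test. Thus 7 of the 9 genes tested passed, at an adjusted *p* under 0.05 by edgeR with genotype in the model, 6 lower and 1 higher in replicate 2. Of all 20057 genes tested, 15.5% were called lower and 13.7% higher, so a difference between the sets was common in these libraries. Of the green tissue markers, *GLK1*, a regulator of chloroplast genes, was also lower in replicate 2 in 5 of 5 genotypes, with sets that did not overlap (log2FC -0.21, SE 0.0387, adjusted *p* = 0.00288 by edgeR), whereas *RBCS1A* (0.02) and *CAB4* (0.01) and the 4 root markers (-0.11 to 0.21) were not called. The part of *GLK1* in the set differences of the clock genes was not tested.

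In replicate 2 minus replicate 1, the edgeR log2FC of *RVE1* was -1.10 (SE 0.0809, adjusted *p* = 1.1e-05). It was -0.85 for *PRR5* (SE 0.0800, adjusted *p* = 4.8e-05) and -0.70 for *PRR7* (SE 0.138, adjusted *p* = 0.00397). For *RVE8* it was -0.39 (SE 0.0552, adjusted *p* = 0.000606), for *RVE2* -0.35 (SE 0.0406, adjusted *p* = 0.00016) and for *RVE6* -0.35 (SE 0.0793, adjusted *p* = 0.00818). The log2FC of *RVE4* was 0.25 (SE 0.0537, adjusted *p* = 0.00648). These 7 genes differed in the same direction in 5 of 5 genotypes. *CCA1* was lower in 5 of 5 as well, with a log2FC of -0.32 (SE 0.113, adjusted *p* = 0.0611), and *LHY* was lower in 3 and higher in 2, with -0.11 (SE 0.104, adjusted *p* = 0.455).

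Within genotypes, 7 of the 9 genes were lower in replicate 2 in all 5 genotypes and 1 was higher in all 5, against 19.1% and 17.3% of all genes. The sets did not overlap for 5 genes, *RVE6*, *RVE1*, *PRR7* and *PRR5* below and *RVE4* above, against 9.06% and 7.42% of all genes. The gap was narrow for *RVE6* (lowest replicate 1 library 221.1 against highest replicate 2 library 220.2 normalised reads) and for *PRR7* (48.8 against 47.42). It was also narrow for *RVE4*, with 1378 as the highest in replicate 1 and 1395 as the lowest in replicate 2. The median log2FC was -0.35 over the 9 genes and 0.00089 over all genes tested, of which the middle 90% lay between -0.47 and 0.40. *RVE1*, *PRR7* and *PRR5* lay outside that range. With 5 pairs, an exact two-sided sign-flip test cannot give a *p* below 0.0625, which is the value each of the 8 genes with 1 direction reached.

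The size of the difference varied among genotypes. For *RVE1* the log2 ratio of replicate 2 to replicate 1 was -0.90 in Col-0, -0.86 in *fld*, -1.16 in *ld* and -1.31 in both double mutants. For *RVE4* it was 0.39 in Col-0, 0.32 in *fld* and 0.35 in *ld*, against 0.13 and 0.05 in *efl2 efl4* and *sdg26 aprf1*. For *LHY* it was -0.37 in Col-0, -0.32 in *fld* and -0.36 in *ld*, but above 0 in the double mutants, at 0.10 for *efl2 efl4* and 0.31 for *sdg26 aprf1*. With 1 library per genotype and number, a difference between genotypes in these ratios was not tested. Leaving out the pair of any 1 genotype kept the same 7 calls, including the pair that holds the library with seed storage reads. Within single tables of 4 libraries, 8 genes were called by limma with Col-0 and *fld*, 8 with Col-0 and *ld*, 3 with Col-0 and *efl2 efl4*, and 0 with Col-0 and *sdg26 aprf1*, where 172 genes of the whole table were called.

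**Figure D3:**
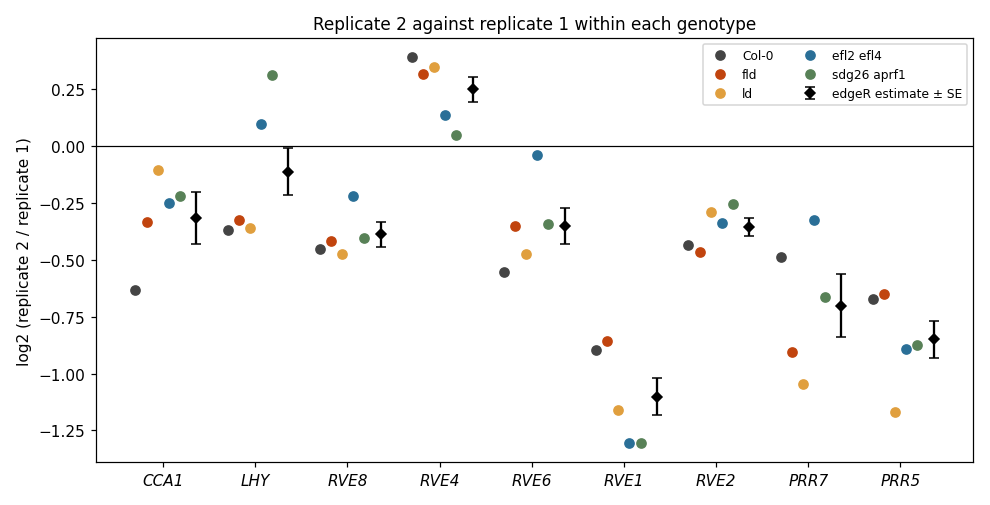
Log2 ratio of replicate 2 to replicate 1 (y axis) for the 9 tested genes (x axis), 1 coloured point per genotype, with the edgeR estimate and its SE as a black diamond. *RVE1* lies at -1.10, *PRR5* at -0.85 and *PRR7* at -0.70, *RVE4* lies above 0 in all 5 genotypes, and *LHY* has points on both sides of 0.

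The other clock genes were looked at from a list of 25, of which 23 were tested. Between the sets, 13 were called lower and 3 higher in replicate 2, against 15.5% and 13.7% of all genes tested. The median log2FC over the 23 genes was -0.22. Among the homologs and partners of the MYB-like proteins, *RVE3* (-1.52), *RVE5* (-0.28) and *LNK1* (-1.26), which encodes a coactivator that works with RVE8, were lower. Of the evening genes, *GI* (-1.26), *PRR3* (-0.58), *TOC1* (-0.24) and *ELF4* (-0.52), a subunit of the evening complex, were lower, whereas *LUX* (0.34) and *BOA* (0.35), DNA-binding proteins of that complex, and *CHE* (0.26), a TCP-type regulator of *CCA1*, were higher. The photoreceptor F-box genes *FKF1* (-0.90) and *ZTL* (-0.27), the cold-regulated repressors *COR28* (-0.79) and *COR27* (-0.22), and the output genes *GRP7* (-0.19) and *GRP8* (-0.24) were lower. The 7 genes that did not pass ranged from -0.18 to 0.30, and *LNK3* and *LNK4* were too low to test. When the pair of 1 genotype was left out, *COR27* lost its call in 4 of the 5 fits, without the *fld*, *ld*, *efl2 efl4* or *sdg26 aprf1* pair (adjusted *p* up to 0.146 by edgeR). *CHE* lost it in 2, without the *fld* or the *ld* pair (up to 0.0730), *GRP7* in 1, without the *fld* pair (0.0523), and *GRP8* in 1, without the *ld* pair (0.0655).

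**Figure D4:**
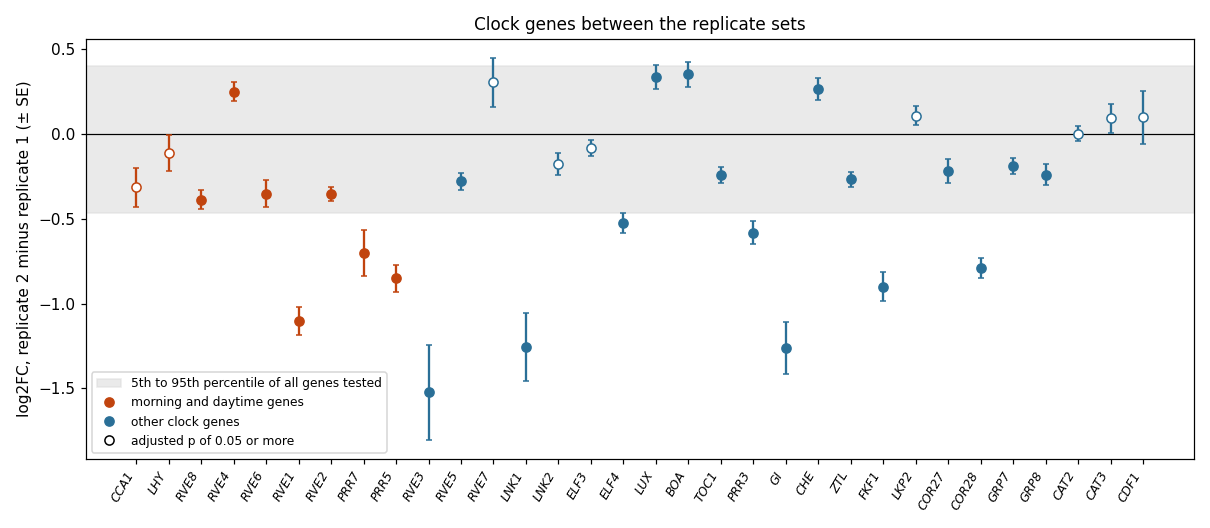
EdgeR log2FC of replicate 2 minus replicate 1 (y axis, bars SE) for the 9 morning and daytime genes (red) and 23 other clock genes (blue); open points have an adjusted *p* of 0.05 or more, and the grey band spans the middle 90% of all genes tested. *RVE3*, at -1.52, is the lowest, and *LUX* and *BOA* stand above 0.

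The second comparison asked whether each mutant differed from Col-0. The largest differences concerned *LHY*, at 63.4% of Col-0 in *fld* and 64.0% in *ld*, but no gene of the set passed the thresholds of the study in any mutant. At an absolute log2FC of at least 1 and *P* under 0.01 by limma, 0 of the 9 genes were called in each mutant, against 0.394% of all genes tested for *fld*, 0.504% for *ld*, 0.434% for *efl2 efl4* and 0.498% for *sdg26 aprf1*. At an unadjusted *P* under 0.05 by limma, 1 gene was below the cutoff in *fld* and 1 in *ld*, *LHY* in both, and 0 in the other mutants. The share of all genes under this looser cutoff was not counted, and the shares above do not apply to it. EdgeR and DESeq2 on the same 4 libraries also called 0 at the thresholds of the study. The log2FC lay between -0.65 and 0.19 in *fld* (median 0.04), -0.64 and 0.13 in *ld* (median -0.14), -0.40 and 0.21 in *efl2 efl4* (median -0.02), and -0.25 and 0.15 in *sdg26 aprf1* (median -0.18), with medians over all genes between -0.00238 and 0.000717. The 4 comparisons share the Col-0 libraries. The root hair marker *COBL9* lay below both Col-0 libraries in *fld* (76.7% of Col-0), *ld* (81.8%) and *sdg26 aprf1* (68.7%) but not in *efl2 efl4* (87.1%). Of all genes, 29.3%, 30.1% and 30.2% did not overlap with Col-0, in either direction, in *fld*, *ld* and *sdg26 aprf1*. The root marker *PLT1* lay above both Col-0 libraries in *fld* (125%) and below them in *sdg26 aprf1* (26.18 and 29.79 against 37.98 and 42.48 normalised reads). *SHR* and *SCR* overlapped with Col-0 in all 4 mutants. *COBL9* passed the thresholds in none, and the part of the root markers in the values of the clock genes was not tested.

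For *LHY* in *fld*, the log2FC on the log2(normalised reads + 1) scale was -0.65 (SE 0.190, adjusted *p* = 0.9996 by limma). In *ld* it was -0.64 (SE 0.197, adjusted *p* = 0.9999 by limma). Both libraries of each mutant lay below both Col-0 libraries, which was so, or the reverse, for 29.3% of all genes in *fld* and 30.1% in *ld*. When the replicate number entered as a block, limma gave an adjusted *p* of 0.00587 in *fld* and 0.00706 in *ld*, and called 2.25% and 3.38% of all genes. The blocked fit of edgeR over the 10 libraries gave 0.140 and 0.108, with 0.688% and 1.45% of genes called. The call on *LHY* in these mutants therefore depended on the fit.

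No other gene of the set passed either blocked fit against Col-0. The blocked fits of limma and edgeR called 2.86% and 2.16% of all genes for *efl2 efl4*, and 0.0399% and 2.12% for *sdg26 aprf1*. *CCA1* had the same sign as *LHY* in all 4 mutants, with limma log2FC of -0.34 (SE 0.284) in *fld*, -0.27 (SE 0.265) in *ld*, and 0.12 (SE 0.270) and -0.18 (SE 0.269) in the double mutants *efl2 efl4* and *sdg26 aprf1*. For *RVE8*, in the same order of mutants, the log2FC was -0.23 (SE 0.221), -0.33 (SE 0.234), 0.21 (SE 0.189) and -0.21 (SE 0.217). None of these values passed the test. *RVE1*, *PRR7* and *PRR5*, the genes that differed most between the replicate sets, had SE from 0.265 to 0.512 over the 4 mutants by limma without the block. Those SE also hold the difference between the replicate sets, and with the limma block they were from 0.0996 to 0.224. Among the other clock genes, 0 of 24 in *fld* and *sdg26 aprf1* and 0 of 23 in *ld* and *efl2 efl4* passed the thresholds of the study. With the block, limma called *CHE* and *CAT3*, a catalase gene under clock control, in *fld* (adjusted *p* = 0.0437 and 0.000138) and in *ld* (0.00636 and 0.0480), and *CAT2* in *efl2 efl4* (0.0185). The blocked edgeR fit called *CHE* in *ld* (0.0434) and in *sdg26 aprf1* (0.0173) and *CAT2* in *efl2 efl4* (0.0329). With 2 libraries against 2, an exact permutation test cannot give a *p* below 0.333.

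**Figure D5:**
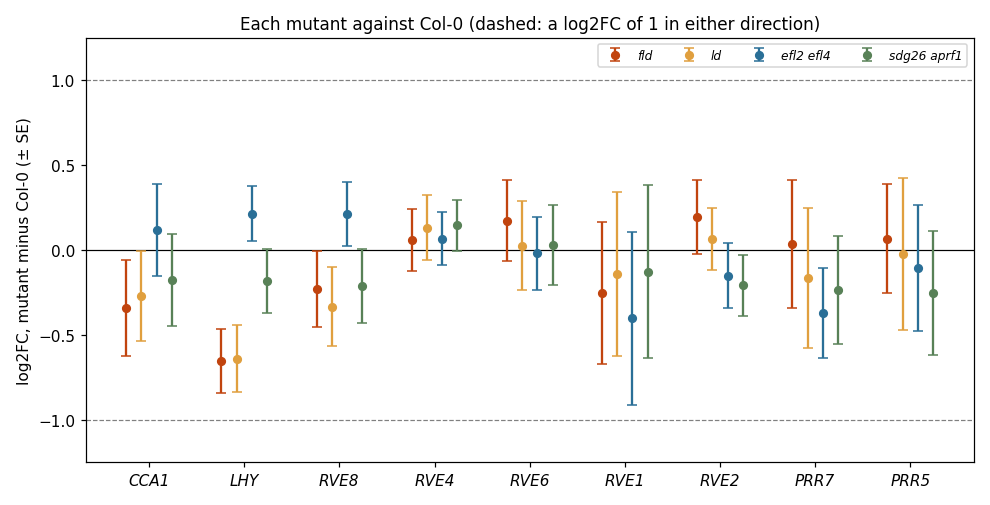
Limma log2FC of each mutant minus Col-0 (y axis, bars SE) for the 9 tested genes (x axis), 1 colour per mutant; dashed lines mark 1 and -1. All points lie between the dashed lines, and *LHY* in *fld* (-0.65) and *ld* (-0.64) lies farthest from 0.

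The third comparison asked whether the 5 genotypes differed among themselves. Without the replicate block, the edgeR F test called 0 of the 9 genes, against 0.249% of all genes. *LHY* came nearest (adjusted *p* = 0.352 by edgeR) and was the 1 gene under 0.05 before adjustment, a cutoff not counted over all genes. Limma without the block called 0 and the likelihood ratio test of DESeq2 called 1, *LHY* (adjusted *p* = 0.0151). Over all 20057 genes, edgeR without the block called 50, limma 38 and DESeq2 258, so DESeq2 called the most genes in this comparison. With the block, 3 genes were called, against 4.06% of all genes: *LHY* (adjusted *p* = 0.0354), *RVE8* (adjusted *p* = 0.0248) and *RVE2* (adjusted *p* = 0.0252). All 3 calls were lost when either library of *fld*, *ld* or *efl2 efl4* was left out, with adjusted *p* up to 0.151 for *LHY*, 0.129 for *RVE8* and 0.111 for *RVE2*. They held without either library of Col-0 or *sdg26 aprf1*. The highest value for *LHY* and for *RVE8* came without *efl2 efl4* replicate 2, the library with seed storage reads, whose part in the result was not tested.

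The order of the genotypes differed between these genes. For *LHY*, mean normalised reads were 422.6 ± 20.1 (SD, n = 2) in *efl2 efl4*, 365.9 ± 66.3 in Col-0, 321.7 ± 49.2 in *sdg26 aprf1*, 235.1 ± 41.4 in *ld* and 232.3 ± 37.0 in *fld*. For *RVE8* they were 485.8 ± 52.4 in *efl2 efl4*, 422.2 ± 92.7 in Col-0, 363.3 ± 71.4 in *sdg26 aprf1*, 359.9 ± 73.0 in *fld* and 336.4 ± 78.0 in *ld*. For *RVE2* the order began with *fld* at 3330 ± 752, followed by *ld* at 3021 ± 428, Col-0 at 2900 ± 614, *efl2 efl4* at 2609 ± 429 and *sdg26 aprf1* at 2493 ± 310. Neighbours in each order did not differ beyond their spread, except that both *sdg26 aprf1* libraries of *LHY* lay above all *ld* libraries. *CCA1* followed the order of *LHY*, from 79.6 ± 9.91 in *efl2 efl4* to 57.8 ± 9.59 in *fld*, and did not pass with the block (adjusted *p* = 0.380 by edgeR).

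Pairs of mutants were then compared in the blocked edgeR fit, with *p* adjusted over all genes. *LHY* was higher in *efl2 efl4* than in *fld* by a log2FC of 0.87 (SE 0.163, adjusted *p* = 0.0318) and than in *ld* by 0.85 (SE 0.164, adjusted *p* = 0.0294). *RVE8* was higher in *efl2 efl4* than in *fld* by 0.44 (SE 0.0861, adjusted *p* = 0.0362) and than in *ld* by 0.54 (SE 0.0868, adjusted *p* = 0.0150), and *sdg26 aprf1* minus *efl2 efl4* was -0.42 (SE 0.0860, adjusted *p* = 0.0314). *RVE2* was lower than in *fld* in both double mutants: *efl2 efl4* minus *fld* was -0.34 (SE 0.0640, adjusted *p* = 0.0302) and *sdg26 aprf1* minus *fld* was -0.40 (SE 0.0641, adjusted *p* = 0.0199). These comparisons called 1.61% of all genes for *efl2 efl4* against *fld*, 1.92% for *efl2 efl4* against *ld*, 1.08% for *sdg26 aprf1* against *fld* and 3.08% for *sdg26 aprf1* against *efl2 efl4*. Both *efl2 efl4* libraries lay above all 4 *fld* and *ld* libraries for *LHY* and for *RVE8*. This describes the same values as the calls, and its share over all genes was not counted. The direction held when each of the 10 libraries was left out in turn, but every one of the 7 calls was lost in some of these fits. Both *LHY* calls and the calls of *RVE8* and *RVE2* in *efl2 efl4* against *fld* were lost without any 1 of the 6 libraries of *fld*, *ld* and *efl2 efl4*. *RVE8* in *efl2 efl4* against *ld* was lost without either *ld* library or *efl2 efl4* replicate 2, and against *sdg26 aprf1* without any 1 of the 8 mutant libraries. *RVE2* in *sdg26 aprf1* against *fld* was lost without either *fld* library, *ld* replicate 1 or *sdg26 aprf1* replicate 1. The adjusted *p* rose to at most 0.329 by edgeR, for *LHY* against *ld*.

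Across the 10 libraries, which share genotypes and replicate numbers, the genes fell into groups by their correlation on the log2 scale, given here as a description. *PRR5* correlated with *RVE1* at 0.93 and with *PRR7* at 0.90, and *RVE4* ran against them, at -0.84 with *PRR7* and -0.82 with *PRR5*. *RVE6* and *RVE2* were nearly as close, at 0.89 and 0.85 with *PRR7* and at 0.84 and 0.83 with *PRR5*. *RVE4* also ran against *RVE6* (-0.82), *RVE8* (-0.76) and *RVE2* (-0.74). After the mean of each replicate number was removed, *PRR5* was at 0.24 with *RVE1* and at 0.54 with *PRR7*, *RVE1* and *PRR7* were at 0.20, and *PRR7* was at 0.58 with both *RVE6* and *RVE2*. On the same scale *LHY* correlated with *CCA1* at 0.85 and with *RVE8* at 0.87, and *CCA1* with *RVE8* at 0.82. Outside the set, the genes most like *PRR5* over the 10 libraries were AT4G19670 (Pearson's r of 0.986), AT5G23240, annotated as *DJC76* (0.985), and AT5G48150, annotated as *PAT1* (0.984). Those most like *CCA1* were AT4G38950 (0.966), AT5G10950 (0.936) and AT4G16360 (0.935). For *PRR9*, with 0 to 4 reads, they were *OVA6* (0.936), *VIIIB* (0.928) and AT1G14390 (0.911), where single reads set the pattern.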

How the data were processed

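RNA-seq was made from 10 libraries, 2 for each of 5 genotypes, as single-end reads of total RNA from whole seedlings. Per the labels and the study's methods, the authors mapped reads to TAIR10 by HISAT2, took exon counts from featureCounts, and used edgeR for normalization; the annotation and the strand setting are not given in the sources used here. The deposited values are a signal of normalized reads per gene, in 1 table per mutant, each with the same Col-0 libraries and each normalized separately. Values were whole multiples of 1 read within a tolerance of 0.1 for 99.0% to 100% of genes with a read in each column, and the recovered reads of Col-0 were identical in the 4 tables.

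Mutant and Col-0 libraries of 1 table were compared by limma 3.58.1 with a trend on log2(normalized reads + 1), keeping genes whose mean reached 10, at the thresholds of the study (absolute log2FC of at least 1, *P* under 0.01). This scale understates the change of low genes. Recovered reads of all 10 libraries were scaled by TMM and tested with the quasi-likelihood test of edgeR 4.0.16 in R 4.3.3, for the replicate number with genotype in the model and for differences among genotypes, with Benjamini-Hochberg adjustment over 20057 genes. Alternatives were the replicate block, DESeq2 1.42.0, other scalings, pseudocounts of 0.5 and 5, no filter, and leaving out each library or pair.

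The replicate numbers come from the labels. The replicate 2 minus replicate 1 differences of any pair of genotypes correlated at 0.438 to 0.721 over 20057 genes, above 0.1 in all 10 pairs, so same-numbered libraries were treated as paired and the blocked value is given where it changes a call. Intervals for counts of 0 cover counting error only. All 10 genes were named, and other clock genes came from a list; the members and lists were chosen with earlier results of these data known. The genes most like *CCA1*, *PRR9* and *PRR5* were those with the highest Pearson correlation over the 10 libraries. Gene models and sequences are those of RefSeq for TAIR10.1, which all 32548 identifiers matched. Scripts were tested on simulated data. Plots were drawn with matplotlib 3.10.9.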

Additional observations from a re-analysis of the deposited data

Results flagged for a closer look

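In the fit with the replicate block, 7 differences between mutants in their effect against Col-0 passed the test of the difference itself, with adjusted *p* by edgeR over all genes. They are the same 7 calls as in the comparison of pairs of mutants above. These comparisons called 1.08% to 3.08% of all genes, and every call was lost in some of the fits with 1 library left out. For *LHY*, the log2FC of *efl2 efl4* exceeded that of *fld* by 0.87 (adjusted *p* = 0.0318) and that of *ld* by 0.85 (adjusted *p* = 0.0294). For *RVE8*, *efl2 efl4* exceeded *fld* by 0.44 (adjusted *p* = 0.0362) and *ld* by 0.54 (adjusted *p* = 0.0150), and *sdg26 aprf1* minus *efl2 efl4* was -0.42 (adjusted *p* = 0.0314). For *RVE2*, *efl2 efl4* minus *fld* was -0.34 (adjusted *p* = 0.0302) and *sdg26 aprf1* minus *fld* was -0.40 (adjusted *p* = 0.0199). None of the 3 genes passed the test among genotypes by edgeR without the block.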

How the results depend on the processing

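The set differences of the 9 tested genes kept their direction under all 14 settings run. The 7 calls were also made by DESeq2 and limma, under other scalings and without the filter, but limma called 3 within the *efl2 efl4* table and 0 within that of *sdg26 aprf1* (an alternative chosen after seeing the data), from 4 libraries each; *COR27* lost its call with upper-quartile scaling (adjusted *p* = 0.0534) and DESeq2 (0.173). Against Col-0, the count of members at the thresholds stayed at 0, except for 1 in *efl2 efl4* with no filter, *PRR9*. Among the 5 genotypes, the replicate block gave 3 calls, DESeq2 1, and limma with the block 3 (chosen after seeing the data); leaving out 1 library in the blocked fit gave 0 to 3. The cause of these changes was not tested. The direction of *PRR5* in *ld* (-0.02) turned with edgeR on 4 libraries (0.0535), DESeq2 (0.0558) and edgeR on 10 libraries without (0.0583) and with the replicate block (0.0204).

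Leaving out 1 library turned the log2FC against Col-0 of members that had not passed the test. These limma fits had no replicate block, so 1 group then held 1 replicate number and the other group both. The ranges given here therefore also carry the difference between the replicate sets. In *fld*, the ranges were -0.14 to 0.26 for *RVE4*, -0.10 to 0.45 for *RVE6*, -0.70 to 0.19 for *RVE1*, -0.036 to 0.43 for *RVE2*, -0.41 to 0.49 for *PRR7* and -0.27 to 0.40 for *PRR5*. In *ld*, they were -0.59 to 0.044 for *CCA1*, -0.063 to 0.33 for *RVE4*, -0.25 to 0.30 for *RVE6*, -0.72 to 0.43 for *RVE1*, -0.15 to 0.28 for *RVE2*, -0.68 to 0.35 for *PRR7* and -0.60 to 0.56 for *PRR5*. In *efl2 efl4*, they were -0.20 to 0.44 for *CCA1*, -0.017 to 0.44 for *RVE8*, -0.13 to 0.26 for *RVE4*, -0.30 to 0.26 for *RVE6*, -1.05 to 0.25 for *RVE1*, -0.37 to 0.069 for *RVE2* and -0.55 to 0.34 for *PRR5*. In *sdg26 aprf1*, they were -0.49 to 0.14 for *CCA1*, -0.37 to 0.0035 for *LHY*, -0.44 to 0.013 for *RVE8*, -0.050 to 0.34 for *RVE4*, -0.24 to 0.31 for *RVE6*, -0.78 to 0.52 for *RVE1*, -0.42 to 0.010 for *RVE2*, -0.57 to 0.10 for *PRR7* and -0.69 to 0.18 for *PRR5*. For *LHY* they were -0.84 to -0.47 in *fld* and -0.82 to -0.45 in *ld*.

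Counts over all genes moved by more than 1.5 times. At the thresholds, 79 genes in *fld* became 132 with the limma block, 159 with no filter and 141 with the edgeR block; 101 in *ld* became 173 and 174 with the blocks; 87 in *efl2 efl4* became 169, 159 and 170; and 100 in *sdg26 aprf1* became 172 with no filter and 191 with the edgeR block, and up to 207 without a Col-0 library. At an adjusted *p* under 0.05, limma called 2, 1, 1 and 0 genes in the 4 mutants in that order, limma with the block 452, 676, 573 and 8, DESeq2 35, 52, 69 and 56, edgeR on 10 libraries 16, 19, 32 and 29, and with its block 138, 291, 434 and 426. Set calls fell from 5864 to 3453 with DESeq2 and to 2478 and 172 within the *efl2 efl4* and *sdg26 aprf1* tables. Calls among genotypes went from 50 to 815 with the block, 258 with DESeq2, 774 with the limma block and 16 to 27 with 1 library left out; in the blocked fit, leaving 1 out gave 274 to 1293. *PRR9* was too low to test at this depth.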
